A study of Mus musculus with 14 samples.

Results

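The inflammasome, gasdermin and *Il18* genes described here are 10 genes chosen by name from the count tables of the mouse colon: the sensors *Nlrp6* and *Aim2*, the adaptor *Pycard*, the caspases *Casp1* and *Casp4*, the gasdermins *Gsdmd*, *Gsdmc2*, *Gsdmc3* and *Gsdmc4*, and the cytokine *Il18*. They were 10 of 55889 genes listed in the table without DSS and of 54721 genes listed in the table after DSS, and all 10 passed the filter on low counts in both. RNA-seq libraries came from 14 mice labelled C57BL/6N and aged 8 to 12 weeks. Without dextran sulfate sodium (DSS), a chemical that injures the colon epithelium, there were 4 WT mice and 4 germline *MiR-29ab1-/-* mice (KO), which lack the locus of miR-29a and miR-29b-1 in all cells. After 3 days of 3.5% DSS in the drinking water there were 3 WT and 3 KO mice. The question was how the loss of the miRNA locus changed these genes in each condition, and the miRNAs of the other miR-29 locus were left in place in the KO mice.

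An inflammasome is a protein complex in which a sensor binds the adaptor ASC, the product of *Pycard*, and ASC recruits and activates caspase-1. Caspase-1 cuts the precursor of IL-18 to its active form and cuts gasdermin D, whose released part opens pores in the cell membrane, while mouse caspase-11, the product of *Casp4*, binds bacterial lipopolysaccharide inside the cell and also cuts gasdermin D. In the gut, epithelial cells make IL-18 and NLRP6 and act in the barrier against microbes, and the *Gsdmc* paralogs are known as epithelial genes that respond to type 2 cytokines. RNA levels tell nothing of whether a caspase or gasdermin was cut.

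The libraries held 14231157 to 18185020 reads on genes without DSS and 20076719 to 23153149 after DSS, and without DSS every WT library was larger than every KO library. As tissue the labels give small intestinal crypts, and the paper gives colon. The summed level of 6 colonocyte markers was 2407 to 9134 CPM (read counts scaled to library size with edgeR's TMM method), that of 8 small-intestine markers was 16.1 to 55.2 CPM, *Apoa4* had 3 reads or fewer in each mouse, and 6 markers of epithelium summed to 7960 to 15767 CPM. Markers of smooth muscle summed to 0.920 to 3.495 CPM. The mature miRNAs are not measured by these libraries (*Mir29a* had 0 reads in all 14 mice), so the deletion could not be checked at the miRNA itself. *Lncpint*, a long noncoding RNA gene, had 7 to 23 reads in WT and 1386 to 2889 in KO mice without DSS, and 6 to 14 against 706 to 1144 after DSS, so the mice fell into the labelled genotypes by this gene. KO mice 1 and 2 after DSS stood apart, with 14.8% and 20.2% of their reads on mitochondrial genes, against 5.71% to 13.9% in the other 12 mice.

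The mature miRNAs of the deleted locus, and those of the locus that the KO mice keep, are printed to show what they share. MiR-29a-3p and miR-29b-3p share the seed (bases 2 to 8, in capitals), the stretch that pairs with a target, with miR-29c-3p of the kept locus. They are RefSeq sequences on GRCm38.p6, with miR-29a-3p at chr6:31062673-31062694 and miR-29b-3p of *Mir29b-1* at chr6:31063025-31063047, both on the minus strand. The kept locus encodes the same miR-29b-3p sequence in *Mir29b-2*, at chr1:195037091-195037113 on the plus strand, beside miR-29c-3p at chr1:195037600-195037621, so the KO mice lack 1 of the 2 genes for miR-29b-3p.
miR-29a-3p: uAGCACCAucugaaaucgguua
miR-29b-3p: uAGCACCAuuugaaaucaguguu
miR-29c-3p: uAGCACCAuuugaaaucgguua
The 3′ UTRs of all coding transcripts of the 10 genes in GENCODE vM21 were searched on the transcript strand for TGGTGCTA (8mer) and for the 7-base matches TGGTGCT and GGTGCTA. None of the 10 held any of them, with longest 3′ UTRs from 88 bases in *Casp1* to 3004 bases in *Pycard*. Of 21022 protein-coding genes with a 3′ UTR, 16.8% held at least 1, and of the 17323 genes whose 3′ UTR length lay within the range of the 10 genes, 13% did. Among 63 other genes of the pathway lists, 7 held a match, and *Nlrp10*, *Il1rap* and *Cflar* held the 8mer. These are letter matches only, and no match says only that these letters are not in the annotated 3′ UTRs.

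*Gsdmc2*, *Gsdmc3* and *Gsdmc4* lie side by side on the minus strand of chromosome 15, at chr15:63824346-63845177, chr15:63857724-63878558 and chr15:63891264-63912297 (GRCm38), and their similarity limits how far reads can be assigned. *Gsdmc2* and *Gsdmc3* had 97.3% identical bases over their aligned coding sequences, and *Gsdmc4* had 94.4% with each. Of all 50-base windows of a transcript, 46.9% in *Gsdmc2*, 44.5% in *Gsdmc3* and 36.7% in *Gsdmc4* occurred unchanged in another of the 4 *Gsdmc* genes, so the split of reads among them is uncertain. The stretch of 60 coding bases in which the paralogs differ most, at 14 positions in capitals, is printed to show the sites that tell them apart. It spans parts of 3 exons, at chr15:63826902-63828026, chr15:63860332-63861445 and chr15:63893849-63894932.
Gsdmc2: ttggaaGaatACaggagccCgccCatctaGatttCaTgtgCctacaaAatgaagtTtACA
Gsdmc3: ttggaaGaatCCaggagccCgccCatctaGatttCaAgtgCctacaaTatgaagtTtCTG
Gsdmc4: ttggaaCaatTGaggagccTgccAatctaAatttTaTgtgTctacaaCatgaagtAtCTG

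Levels between genes were compared as CPM per kilobase of the authors' gene length. Without DSS, *Gsdmc4* had the highest mean level of the 10, 635 ± 327 CPM per kb (SD, n = 8 mice), followed by *Gsdmc2* at 474 ± 254 and *Gsdmc3* at 121 ± 43.1. *Gsdmc4* was above *Gsdmc2* in CPM per kb in all 8 mice although their ranges overlapped. Of 15441 genes tested, only 44 were higher than *Gsdmc4* per kb. The fourth paralog, *Gsdmc*, was close to silent, with 0 to 0.774 CPM. Next in CPM per kb came *Nlrp6* at 53.0 ± 7.62, *Gsdmd* at 50.5 ± 4.87, *Casp1* at 36.7 ± 4.69, *Il18* at 29.5 ± 10.6 and *Pycard* at 29.1 ± 3.00. *Nlrp6* and *Gsdmd* did not separate (*Nlrp6* was higher in 5 of 8 mice), nor did *Il18* and *Pycard* (4 of 8). *Aim2* at 16.0 ± 1.80 and *Casp4* at 10.04 ± 1.77 CPM per kb had the lowest levels.

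After DSS *Gsdmc4* stood first again, at 882 ± 76.2 CPM per kb (n = 6 mice), above *Gsdmc2* at 335 ± 50.5 without overlap. *Casp1* (143 ± 12.8) and *Il18* (126 ± 36.9) then overlapped each other, and *Il18*, *Gsdmc3* (99.1 ± 13.3), *Gsdmd* (98.0 ± 24.5) and *Nlrp6* (75.0 ± 9.20) each overlapped the next. *Pycard* followed without overlap at 42.0 ± 4.78 CPM per kb, and *Casp4* (17.4 ± 5.12) and *Aim2* (16.7 ± 2.02) were level, each higher in 3 of 6 mice. The *Casp1* value is not on the same footing in both conditions, since its gene length is 3136 bases in the table without DSS and 1497 in the table after DSS.

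**Figure D1:**
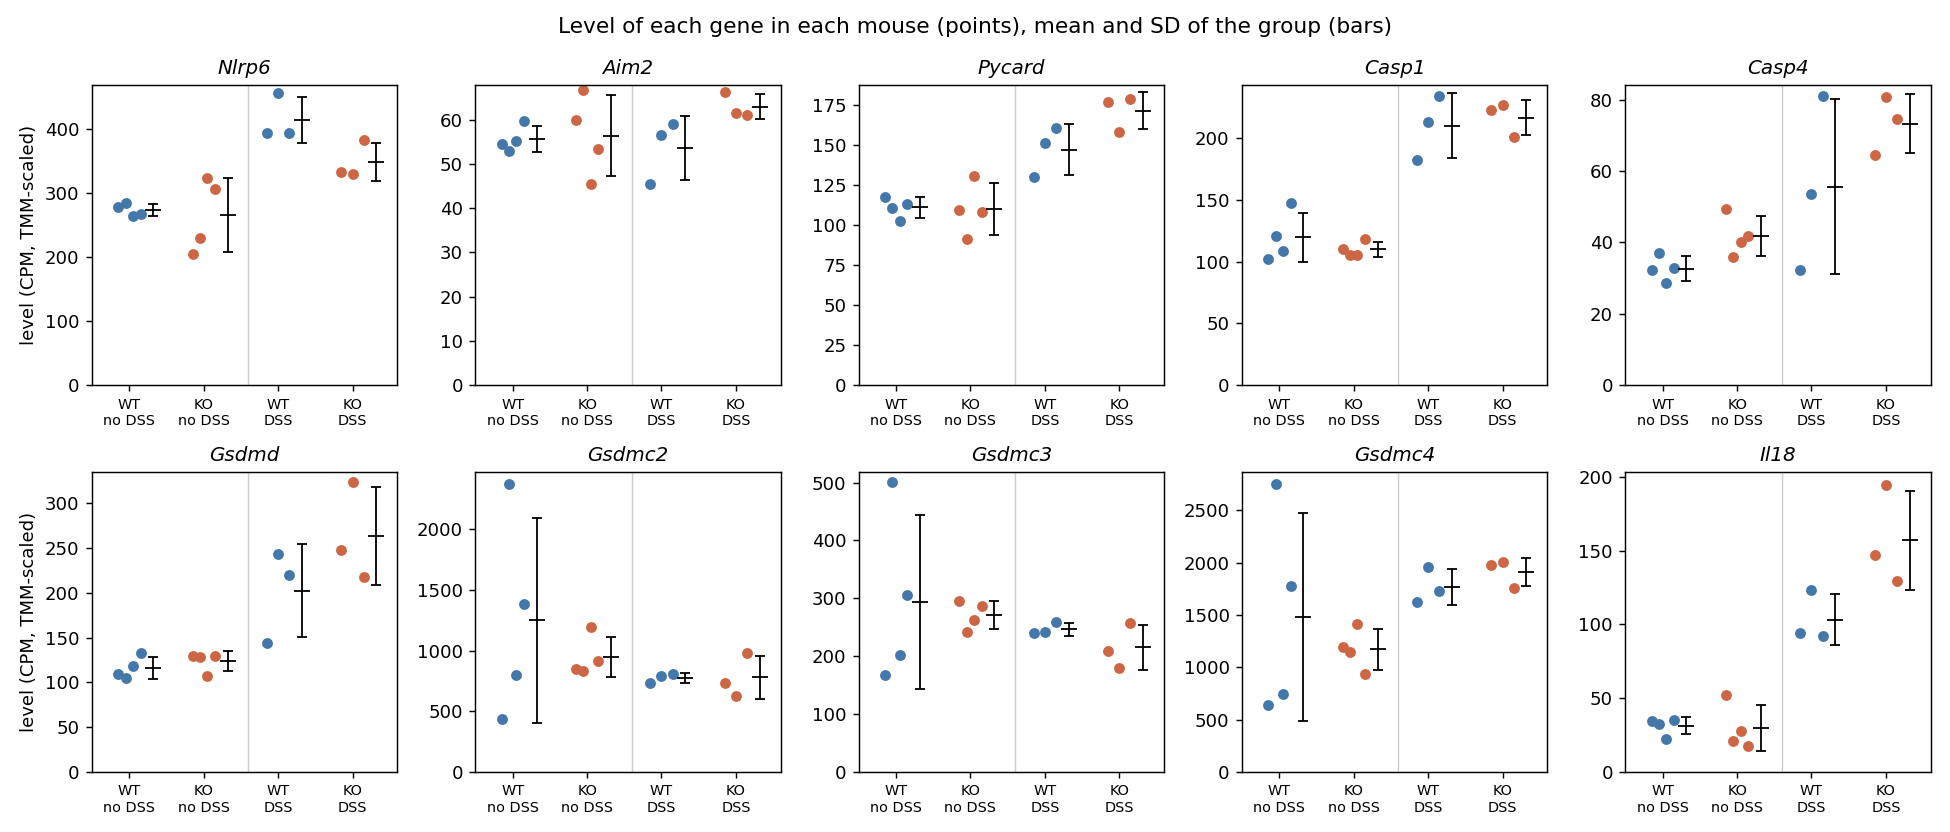
Level of each gene (vertical axis, CPM scaled by TMM, from 0) in each mouse (points) by group, WT in blue and *MiR-29ab1-/-* (KO) in orange, with mean and SD as bars at the right of the points. *Gsdmc2*, *Gsdmc3* and *Gsdmc4* spread widely among the WT mice without DSS, and the 3 KO mice after DSS lie above the 3 WT mice for *Il18* (129 to 195 against 92.3 to 123 CPM).

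Without DSS, 1 of the 10 genes, *Casp4*, differed between genotypes at an unadjusted p under 0.05, the study's cutoff, and none passed after adjustment over all 15441 genes (edgeR quasi-likelihood test, Benjamini-Hochberg). Over all genes tested, 3.67% passed the unadjusted cutoff, 2.09% upward and 1.58% downward, and 0.0194% passed after adjustment. The log2 fold change, KO over WT, was above 0 for 3 of the 10 genes (49.5% of all genes), with a median of -0.06 beside -0.002 for all genes. No gene of the 10 had groups without overlap, beside 2.03% of all genes, 1.11% higher and 0.92% lower in KO mice. Groups of mice could differ in the number of cells of a type or in RNA per cell, and bulk tissue cannot tell these apart.

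*Casp4* (chr9:5308828-5336783, plus strand) encodes the caspase that senses intracellular lipopolysaccharide. Its level was 32.3, 37.0, 28.5 and 32.8 CPM in the WT mice and 49.5, 35.9, 40.3 and 41.7 CPM in the KO mice. Of the KO mice 3 lay above the highest WT mouse, and the lowest KO mouse lay below it, so the groups overlapped. The difference was 0.36 ± 0.12 on the log2 scale (SE), 1.28-fold, with an adjusted p of 0.9995 (edgeR). It passed the unadjusted cutoff with each mouse left out in turn, and no longer passed it when all 14 mice shared 1 estimate of spread (0.36). Over 15 alternatives its adjusted p ran from 0.795 to 1.0000 (edgeR or DESeq2).

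Among the other members of the core pathway, *Casp1* (chr9:5298517-5307265, plus strand, as given after DSS), the caspase that matures IL-18, had 102, 121, 109 and 148 CPM in WT mice and 110, 106, 106 and 119 CPM in KO mice. The groups overlapped and the log2 difference was -0.12 ± 0.12 (adjusted p = 0.9995, edgeR). *Pycard* (chr7:127989708-127993867, minus strand) had 103 to 118 CPM in WT and 91.1 to 131 CPM in KO mice, with a log2 difference of -0.01 ± 0.11. For the DNA sensor *Aim2* (chr1:173350879-173466040, plus strand) the levels were 53.0 to 59.8 and 45.4 to 66.8 CPM, with a log2 difference of 0.02 ± 0.12. Here and for *Nlrp6*, *Pycard* and *Il18*, the KO mice spread more widely than the WT mice.

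*Nlrp6* (chr7:140920902-140929192, plus strand), an epithelial sensor, held a narrow range in WT mice, 278, 284, 264 and 267 CPM. In KO mice it was 204, 229, 324 and 306 CPM, so that 2 mice lay below and 2 above every WT mouse. The coefficient of variation was 3.37% in WT and 21.9% in KO mice, beside medians over all genes of 15.3% and 15.2%. The genotype difference did not pass the test (log2 difference -0.04 ± 0.14, adjusted p = 0.9995, edgeR).

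*Gsdmd* (chr15:75862327-75867408, plus strand), the pore-forming substrate of caspase-1 and caspase-11, was 105 to 133 CPM in WT and 107 to 130 CPM in KO mice (log2 difference 0.09 ± 0.10, adjusted p = 0.9995, edgeR). *Il18* (chr9:50554827-50581840, plus strand) was 34.2, 32.8, 22.6 and 35.3 CPM in WT mice and 52.0, 21.0, 27.9 and 17.6 CPM in KO mice. KO mouse 1 was the highest of the 8 and KO mice 2 and 4 were the lowest. The log2 difference was -0.07 ± 0.33 (adjusted p = 0.9995, edgeR). This value rests on KO mouse 1: without it the difference was -0.49 and passed the unadjusted cutoff (adjusted p = 0.9991, edgeR), and without KO mouse 2 or 4 it was 0.07 or 0.11.

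The *Gsdmc* paralogs were the most variable of the 10 genes in WT mice. *Gsdmc4* was 643, 2757, 744 and 1778 CPM in WT mice and 1194, 1147, 1412 and 932 CPM in KO mice. Its 4 KO mice lay inside the range of the WT mice, which was 4.29-fold from lowest to highest, against 1.52-fold in KO. *Gsdmc2* was 434, 2378, 800 and 1386 CPM in WT and 852, 830, 1192 and 917 CPM in KO mice, and *Gsdmc3* was 167, 501, 202 and 305 CPM in WT and 295, 242, 262 and 286 CPM in KO mice. For each paralog WT mouse 2 was the highest of the 8 and WT mouse 1 the lowest. The coefficients of variation in WT mice were 67.9%, 51.1% and 67.1% for *Gsdmc2*, *Gsdmc3* and *Gsdmc4*, and in KO mice 17.6%, 8.74% and 16.8%, a difference in spread that was not tested. The log2 differences between genotypes were -0.40 ± 0.46, -0.11 ± 0.31 and -0.34 ± 0.45, each with an adjusted p of 0.9995 (edgeR), and without WT mouse 2 they turned to 0.12, 0.27 and 0.15. Summed over the 4 *Gsdmc* genes, which leaves aside how reads were split, the level was 3024 ± 1986 CPM in WT and 2390 ± 328 CPM in KO mice (SD, n = 4 each).

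Some marker sums and the mitochondrial share moved with the spread of the *Gsdmc* genes in WT mice, and others did not. In WT mice 1 to 4 the summed *Gsdmc* level was 1244, 5637, 1746 and 3470 CPM, and the summed level of 7 goblet markers was 23394, 55202, 36801 and 39175 CPM, in the same order. That sum is mostly *Clca1* (10054 to 27924 CPM) and *Fcgbp* (9497 to 21955 CPM), and other goblet markers broke the order: *Muc2* was lowest in WT mouse 4 (22.0 CPM) and highest in WT mouse 3 (164 CPM), and *Spdef* was highest in WT mouse 3 (302 CPM). *Muc2* was far lower in WT mice without DSS (22.0 to 164 CPM) than after DSS (5842 to 7982 CPM), which limits its use here, and the reason was not tested. Colonocyte markers (4063, 5170, 5806 and 6248 CPM) and tuft markers (59.9, 92.9, 107 and 89.2 CPM) were in another order. The markers of epithelium summed to 7960, 10513, 8085 and 10421 CPM, also in the same order, and the share of reads on mitochondrial genes was 13.9%, 6.38%, 11.1% and 9.72%, in the reverse order. The 9 markers of T cells and intraepithelial lymphocytes summed to 331, 75.9, 145 and 72.2 CPM in these mice. In KO mice the goblet sums were 58042, 63288, 46961 and 46887 CPM and did not follow the *Gsdmc* sums of 2341, 2220, 2866 and 2134 CPM, and KO mouse 4 had a lymphocyte sum of 328.5 CPM, near that of WT mouse 1. In KO mice 1 to 4 the epithelium sums were 8203, 8811, 10319 and 9194 CPM and the mitochondrial shares 8.14%, 5.71%, 7.09% and 12.3%. The part of these cells or of RNA quality in the spread was not tested.

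Across the 8 mice without DSS, with both genotypes pooled, the paralogs varied together. On log2 CPM, Pearson's r was 0.94 for *Gsdmc2* with *Gsdmc4* (exact permutation p = 0.000496, adjusted over 6 relations 0.00298), and Spearman's rho was 0.93 (exact permutation p = 0.00223, adjusted 0.0134). It was 0.93 for *Gsdmc2* with *Gsdmc3* (exact permutation p = 0.00372, adjusted 0.00744, rho 0.91 with p = 0.00456 and adjusted 0.0137) and 0.92 for *Gsdmc3* with *Gsdmc4* (exact permutation p = 0.00313, adjusted 0.00744, rho 0.88 with p = 0.00724 and adjusted 0.0145). Without the 2 mice farthest from the median, r was 0.84, 0.56 and 0.71. Reads that match more than 1 paralog could add to these values. In the WT mice, which spread most, the paralogs were in the same order. Among the KO mice alone *Gsdmc3* was highest in mouse 1 (295 CPM). There *Gsdmc2* (1192 CPM) and *Gsdmc4* (1412 CPM) were highest in mouse 3. The relation within each genotype was not tested.

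After DSS the paralogs did not move as a block across mice. Over the 6 mice *Gsdmc2* and *Gsdmc3* had r = 0.84 (exact permutation p = 0.025, adjusted 0.0375, rho 0.89 with p = 0.0333 and adjusted 0.05, and r = 0.74 over the 4 mice left without the 2 farthest). *Gsdmc4* had r = -0.42 with *Gsdmc2* (exact permutation p = 0.436, adjusted 0.436, rho -0.37 with p = 0.497 and adjusted 0.497) and r = -0.69 with *Gsdmc3* (exact permutation p = 0.106, adjusted 0.127, rho -0.66 with p = 0.175 and adjusted 0.21). Without the 2 farthest mice these were 0.08 and -0.10. Whether r differed between the conditions was not tested.

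The balance among the paralogs also differed between the tables. The ratio of reads on *Gsdmc4* to reads on *Gsdmc2* was 1.48, 1.16, 0.930 and 1.28 in WT mice and 1.40, 1.38, 1.19 and 1.02 in KO mice without DSS. After DSS it was 2.22, 2.49 and 2.14 in WT and 2.69, 3.22 and 1.80 in KO mice, so that all 6 mice lay above all 8 mice without DSS. As a share of the reads on the 4 *Gsdmc* genes, *Gsdmc4* took 42.6% to 51.7% without DSS and 58.8% to 71.4% after DSS. The highest ratios after DSS were in KO mice 2 and 1, those with the mitochondrial shares of 20.2% and 14.8%. DSS and the experiment, each with its own table, cannot be told apart, and no test was made.

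**Figure D2:**
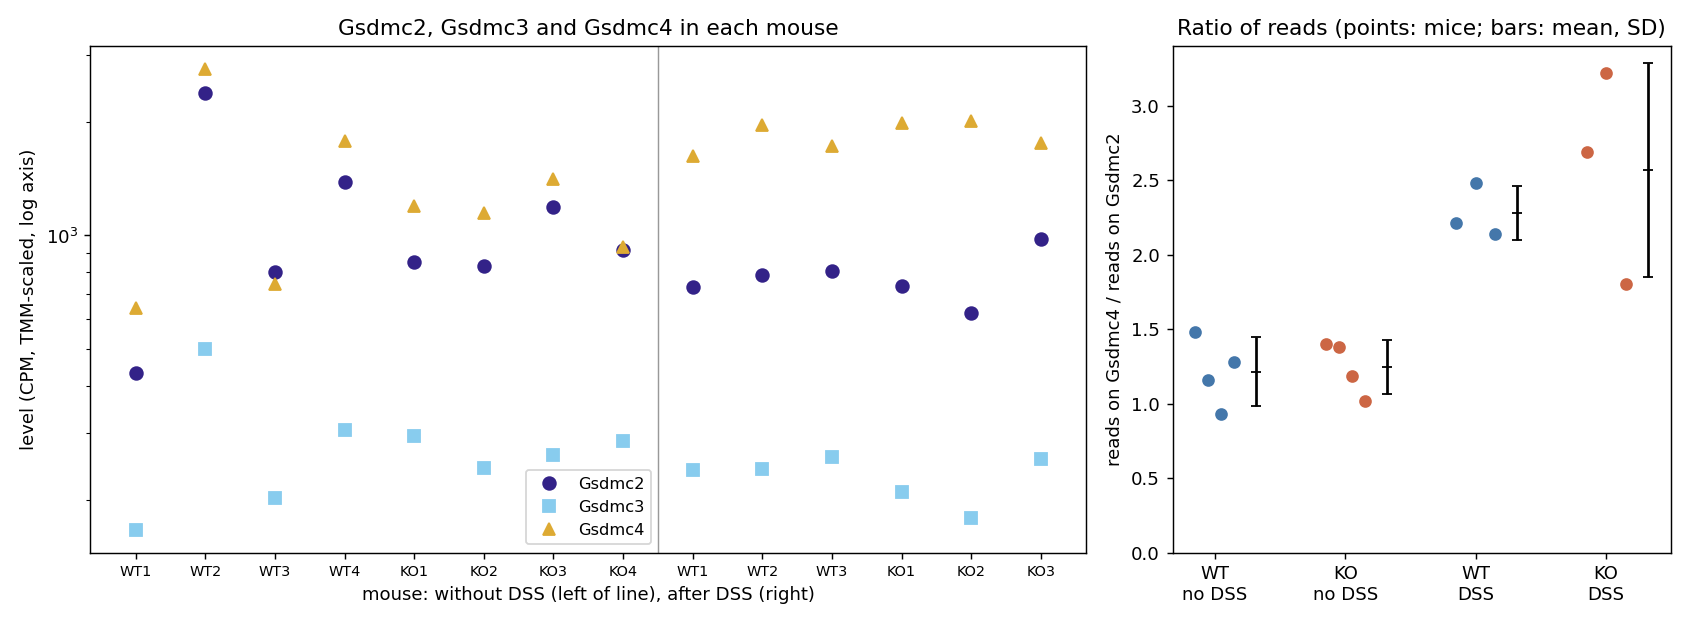
Left, levels of *Gsdmc2* (circles), *Gsdmc3* (squares) and *Gsdmc4* (triangles) in each of the 14 mice on a log axis (CPM), and right, the ratio of reads on *Gsdmc4* to reads on *Gsdmc2* in each mouse, with mean and SD as bars. Among the 4 WT mice without DSS the markers rise and fall together, and the ratio is 0.930 to 1.48 without DSS and 1.80 to 3.22 after DSS.

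After DSS, 1 of the 10 genes, *Il18*, differed between genotypes at an unadjusted p under 0.05, and none passed after adjustment over all 14908 genes tested (edgeR quasi-likelihood test, Benjamini-Hochberg). Over all genes, 7.23% passed the unadjusted cutoff, 3.98% upward and 3.25% downward, and 0.0134% passed after adjustment. The log2 fold change was above 0 for 8 of the 10 genes (49% of all genes), with a median of 0.17 beside -0.005 for all genes. The groups did not overlap for 3 of the 10 genes, *Il18* and *Aim2* higher and *Nlrp6* lower in KO mice, while 11.6% of all genes did not overlap, 5.32% higher and 6.29% lower.

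*Il18* was 94.4, 123 and 92.3 CPM in the WT mice and 147, 195 and 129 CPM in the KO mice. Each KO mouse lay above each WT mouse. The difference was 0.60 ± 0.17 on the log2 scale, 1.52-fold with an adjusted p of 0.646 (edgeR). With each mouse left out in turn it was 0.42 to 0.75 and passed the unadjusted cutoff each time, and with all 14 mice in 1 model it no longer did (0.61). Over 12 alternatives the adjusted p ran from 0.0709 to 0.9997 (edgeR or DESeq2).

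KO mice 1 and 2 after DSS lay outside the range of the WT mice for the mitochondrial share of reads and for several marker sums. No direct measure of RNA quality was used. The share of reads on mitochondrial genes was 8.81%, 6.15% and 7.72% in WT mice 1 to 3 and 14.8%, 20.2% and 7.43% in KO mice 1 to 3. Markers of myeloid cells (10 genes) summed to 101, 116 and 141 CPM in WT and 212, 184 and 127 CPM in KO mice, markers of T cells and intraepithelial lymphocytes (9 genes) to 94.0, 71.5 and 147 CPM and 200.5, 148 and 101.6 CPM, and markers of crypt stem cells (5 genes) to 41.6, 19.1 and 25.4 CPM and 6.84, 4.34 and 23 CPM. Markers of epithelium summed to 13019, 14039 and 14421 CPM in WT and 14768, 15767 and 13558 CPM in KO mice, goblet markers to 24474, 25385 and 35475 CPM and 14989, 19904 and 31898 CPM, and stroma markers to 23, 18.8 and 31.0 CPM and 34.1, 44.5 and 14.8 CPM. *Il18* was highest in KO mouse 2 and next in KO mouse 1, the mice with the high mitochondrial shares, although the myeloid and lymphocyte sums were higher in KO mouse 1 than in KO mouse 2. Among the WT mice, mouse 2 had the highest *Il18* with the lowest mitochondrial share and lymphocyte sum. KO mouse 3 had 129 CPM of *Il18* and lay inside the WT range for the mitochondrial share and for these sums other than stroma, and outside it for stroma and for small intestine (49.6 against 26.8 to 44.9 CPM). The part of RNA quality or of other cells in the *Il18* difference was not tested.

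Upstream of IL-18, the sensor *Nlrp6* was 394, 456 and 393 CPM in WT mice and 333, 329 and 382 CPM in KO mice, with no overlap. Its lowest levels were in KO mice 2 and 1, the mice with the high mitochondrial shares, and KO mouse 3 stood nearest the WT mice. The part of RNA quality in this difference was not tested. The log2 difference was -0.25 ± 0.12 (adjusted p = 0.668, edgeR). DESeq2 put it past the unadjusted cutoff (adjusted p = 0.582), as did edgeR with no filter on low counts (adjusted p = 0.728) or without KO mouse 3 (-0.33, adjusted p = 0.225). *Aim2* was 45.5, 56.5 and 59.1 CPM in WT and 66.2, 61.6 and 61.2 CPM in KO mice. Its groups did not overlap, and the log2 difference was 0.23 ± 0.11 (adjusted p = 0.67, edgeR).

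The adaptor *Pycard* was 130, 151 and 161 CPM in WT and 177, 158 and 179 CPM in KO mice, where the lowest KO mouse lay below the highest WT mouse. The log2 difference was 0.22 ± 0.11 (adjusted p = 0.67, edgeR). Without WT mouse 3, *Aim2*, *Pycard* and *Casp4* each passed the unadjusted cutoff (log2 differences 0.30, 0.29 and 0.78), so these calls turn on that mouse, while the difference itself moved little for *Aim2* and *Pycard* and more for *Casp4*. *Casp4* in full was 32.2, 53.5 and 81.2 CPM in WT and 64.5, 80.8 and 74.5 CPM in KO mice (0.40 ± 0.32, adjusted p = 0.779, edgeR). *Casp1* was 183, 214 and 235 CPM against 223, 227 and 201 CPM, with a log2 difference of 0.05 ± 0.12 (adjusted p = 0.942, edgeR).

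Among the gasdermins after DSS, *Gsdmd* was 145, 243 and 220 CPM in WT and 248, 325 and 218 CPM in KO mice (log2 difference 0.38 ± 0.22, adjusted p = 0.696, edgeR), and it passed the unadjusted cutoff with all 14 mice in 1 model (adjusted p = 0.706, edgeR). *Gsdmd* was highest in KO mouse 2 and next in KO mouse 1, the mice with the high mitochondrial shares. Among the WT mice the order was the reverse: mouse 2 had the highest *Gsdmd* with the lowest share (6.15%), and mouse 1 the lowest *Gsdmd* with the highest share (8.81%). The part of RNA quality in the *Gsdmd* difference was not tested. The *Gsdmc* genes held narrow ranges in WT mice. *Gsdmc4* was 1621, 1954 and 1727 CPM in WT and 1979, 2003 and 1759 CPM in KO mice (0.11 ± 0.14, adjusted p = 0.859, edgeR). *Gsdmc2* was 732, 787 and 806 CPM against 736, 622 and 977 CPM (0.01 ± 0.17, adjusted p = 0.9967, edgeR), and *Gsdmc3* was 239, 241 and 259 CPM against 210, 179 and 257 CPM (-0.20 ± 0.14, adjusted p = 0.735, edgeR). Leaving out KO mouse 3 put *Gsdmc3* past the unadjusted cutoff (-0.35, adjusted p = 0.192, edgeR). Summed over the 4 *Gsdmc* genes, the level was 2789 ± 194 CPM in WT and 2907 ± 95.4 CPM in KO mice (SD, n = 3 each).

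**Figure D3:**
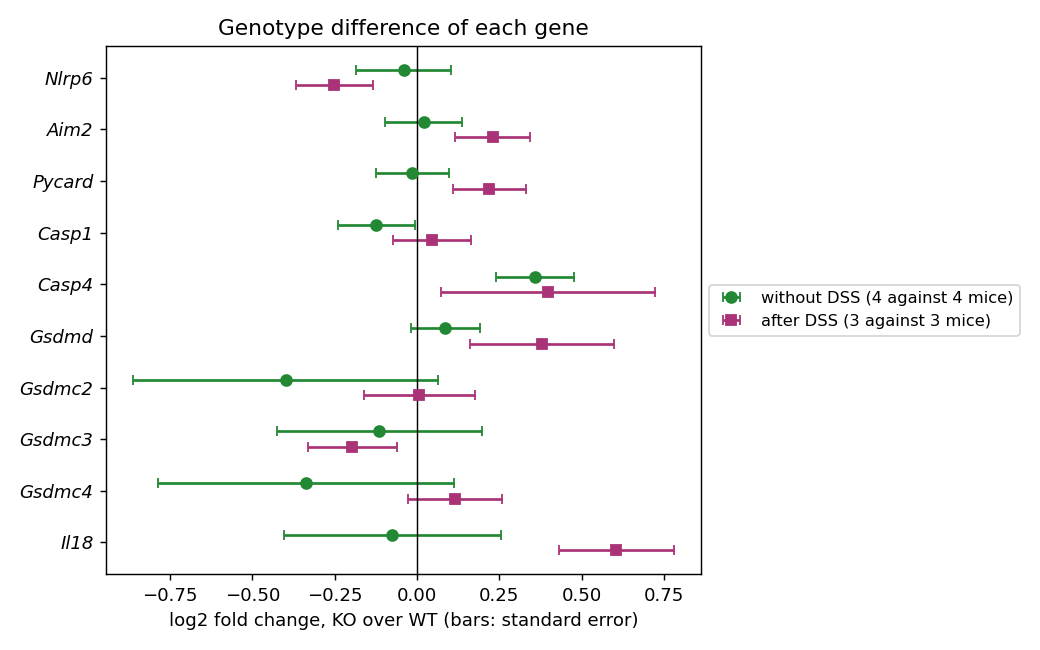
Genotype difference of each of the 10 genes as log2 fold change, KO over WT, with standard error, without DSS (circles, 4 against 4 mice) and after DSS (squares, 3 against 3 mice). *Casp4* without DSS (0.36) and *Il18* after DSS (0.60) are the points at an unadjusted p under 0.05, and the standard errors of *Gsdmc2* and *Gsdmc4* without DSS are the widest (0.46 and 0.45).

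For none of the 10 genes did the genotype difference itself differ between the conditions in 1 model over 14 mice (edgeR, adjusted p from 0.985 to 0.9953), while 3.96% of 16196 genes passed an unadjusted p under 0.05 and 0 passed after adjustment. *Il18* had the smallest p, with a difference of 0.69 ± 0.45 on the log2 scale, and without KO mouse 1 of the condition without DSS it was 1.10 and passed the unadjusted cutoff (adjusted p = 0.9998, edgeR). *Casp4* had a difference of 0.05 ± 0.32, an error wide enough to hold sizeable differences either way.

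Levels in the conditions were set side by side only, because DSS and the experiment cannot be told apart. The mean of *Il18* after DSS was 3.31 times that without DSS in WT mice and 5.30 times in KO mice, with no overlap in either genotype. *Gsdmd* stood at 1.74 and 2.13 times, *Nlrp6* at 1.52 and 1.31 times and *Pycard* at 1.33 and 1.56 times in WT and KO mice, again with no overlap. *Casp1* was at 1.75 and 1.97 times, between tables that give it different gene lengths. *Casp4* was at 1.70 and 1.75 times, with overlap in WT mice. *Aim2* (0.965 and 1.12 times), *Gsdmc2* (0.620 and 0.822 times) and *Gsdmc3* (0.838 and 0.793 times) overlapped between the tables in both genotypes, and *Gsdmc4* (1.19 and 1.63 times) did so in WT mice.

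The 250 bases before the RefSeq start sites of *Casp4* and *Il18*, the genes at an unadjusted p under 0.05, are printed from GRCm38.p6, plus strand. Both strands were searched for the kappa-B consensus, for GAAA and GAAA with 2 bases between, and for TTC followed by GAA with 3 or 4 bases between, and the sequences show matches in capitals, where overlapping matches run together.
Casp4, chr9:5308599-5308848: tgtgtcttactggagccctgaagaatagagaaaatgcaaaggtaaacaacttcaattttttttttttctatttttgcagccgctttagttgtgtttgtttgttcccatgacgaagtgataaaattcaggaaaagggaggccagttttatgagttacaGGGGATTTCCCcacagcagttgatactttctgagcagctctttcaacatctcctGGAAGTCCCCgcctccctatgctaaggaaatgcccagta
Il18, chr9:50554450-50554699: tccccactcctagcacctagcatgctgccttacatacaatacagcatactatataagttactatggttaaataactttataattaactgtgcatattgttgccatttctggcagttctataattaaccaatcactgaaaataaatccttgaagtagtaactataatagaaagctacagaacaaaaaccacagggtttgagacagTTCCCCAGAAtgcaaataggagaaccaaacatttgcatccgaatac
*Casp4* held 3 kappa-B matches, of which 2 overlap, the first 93 bases before the start, and *Il18* held TTC and GAA with 4 bases between 46 bases before the start. Another RefSeq start site of *Casp4*, at chr9:5308860, had the same 3 matches, the first 104 bases before it. Of 32851 promoters of the same length, 5% held a kappa-B match, 5.85% the TTC and GAA pair with 4 bases between, 7.02% that with 3, and 2.98% the GAAA pair. Of the 7 genes with a promoter in the table, *Aim2*, *Pycard*, *Nlrp6*, *Casp1* and *Gsdmc3* held none of the 4. A match is not a bound site.

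Around the 10 genes, 68 further genes of the pathway were listed, of which 47 were tested without DSS and 49 after DSS. Without DSS, 5 were higher and 1 lower in KO mice at an unadjusted p under 0.05, with a median log2 fold change of 0.10, beside 2.09% higher and 1.58% lower and a median of -0.002 over all genes tested. After DSS, 7 were higher and 1 lower, with a median of 0.05, beside 3.98% higher and 3.25% lower and a median of -0.005 over all genes, and none passed adjustment in either condition (smallest adjusted p = 0.9995 and 0.646, edgeR). *Il18r1*, the receptor chain that binds IL-18, passed the unadjusted cutoff upward in both. It was 2.75, 0.477, 1.83 and 0.834 CPM in WT and 3.04, 1.95, 3.30 and 8.80 CPM in KO mice without DSS (log2 difference 1.52 ± 0.60, adjusted p = 0.9995, edgeR), a call lost without KO mouse 4 (0.90), WT mouse 2 (1.23) or WT mouse 4 (1.33). After DSS it was 0.711, 0.502 and 1.85 CPM in WT and 5.14, 4.08 and 3.29 CPM in KO mice (2.04 ± 0.47, adjusted p = 0.646, edgeR), without overlap, and over 12 alternatives the adjusted p ran from 0.00397 with no filter on low counts to 0.9997. Lymphocyte marker sums moved with *Il18r1* within each genotype. Without DSS they were 330.9, 75.9, 145 and 72.2 CPM in WT and 50.9, 51.2, 147 and 328.5 CPM in KO mice, in the order of *Il18r1* apart from WT mice 2 and 4 and KO mice 1 and 2, whose sums were close. After DSS the sums were 94.0, 71.5 and 147 CPM in WT and 200.5, 148 and 101.6 CPM in KO mice, with *Il18r1* in the same order within each genotype. Across genotypes the order did not hold. After DSS, KO mouse 3 had a lower sum than WT mouse 3 (101.6 against 147 CPM) but more *Il18r1* (3.29 against 1.85 CPM). KO mice 1 and 2 had higher sums than each WT mouse. The part of lymphocytes in the *Il18r1* differences was not tested.

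*Il18bp*, the secreted binding protein that neutralizes IL-18, was 4.51 to 6.84 CPM in WT and 6.07 to 15.2 CPM in KO mice without DSS (0.72 ± 0.29, adjusted p = 0.9995, edgeR), and the call was lost without KO mouse 4 (0.39), KO mouse 3 (0.70), WT mouse 1 (0.63), WT mouse 2 (0.74) or WT mouse 3 (0.70). After DSS its levels were 7.36 to 23.9 and 11.3 to 25.3 CPM (0.03 ± 0.51, adjusted p = 0.9939, edgeR). Of 12 other sensors, *Nlrp3* stayed at 0 to 1.13 CPM over the 14 mice, while *Naip1*, which senses bacterial secretion systems, was 128 to 179 CPM without DSS and 205 to 311 CPM after DSS. *Nlrp9b*, an epithelial sensor, was 19.2 to 27.0 CPM in WT and 31.6 to 40.6 CPM in KO mice after DSS (0.58 ± 0.15, adjusted p = 0.646, edgeR), and *Nlrp10* was 5.06 to 5.45 and 7.66 to 8.65 CPM (0.65 ± 0.18, adjusted p = 0.646, edgeR). Both had groups without overlap, and the adjusted p of *Nlrp9b* over 12 alternatives ran from 0.0354 with no filter on low counts to 0.9997.

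*Gsdme*, another gasdermin, was the 1 gene of these lists lower in KO mice without DSS at an unadjusted p under 0.05. It was 29.7, 21.3, 27.5 and 28.0 CPM in WT and 15.1, 22.2, 19.7 and 17.0 CPM in KO mice, which overlapped by 1 mouse (-0.53 ± 0.15, adjusted p = 0.9995, edgeR). After DSS it was 17.9 to 21.4 and 16.7 to 19.8 CPM (-0.13 ± 0.13, adjusted p = 0.811, edgeR). Genes of type 2 cytokine signalling, *Il4ra* (33.3 to 41.3 CPM in WT and 44.3 to 48.6 CPM in KO mice, 0.28 ± 0.09, adjusted p = 0.9995, edgeR) and *Il13ra1* (97.2 to 112 and 111 to 162 CPM, 0.31 ± 0.13, adjusted p = 0.9995, edgeR), passed the unadjusted cutoff without DSS, as did the interferon regulatory factor *Irf1* (84.8 to 95.4 and 93.5 to 120 CPM, 0.26 ± 0.10, adjusted p = 0.9995, edgeR). Of the type 2 list, 2 of 5 tested genes were higher and 0 lower at that cutoff, beside 2.09% and 1.58% of all genes. Tuft cell markers were also higher in KO mice as a group. The sum of 4 markers was 59.9, 92.9, 107 and 89.2 CPM in WT and 107.9, 147, 122 and 159 CPM in KO mice, without overlap. Of the 4, 3 were higher at an unadjusted p under 0.05 (smallest adjusted p = 0.741, edgeR), beside 2.09% of all genes higher at that cutoff and 1.11% higher without overlap. Whether the markers followed these genes from mouse to mouse was not tested. The part of tuft cells in these differences was not tested. After DSS, 0 of 5 tested genes of the type 2 list and 0 of 4 tuft markers were at that cutoff. Over all genes after DSS, 3.98% were higher and 3.25% lower at it. The tuft sums then overlapped, at 38.9 to 74.0 CPM in WT and 42.5 to 72.8 CPM in KO mice. The cytokine gene *Il13* had 0 to 0.0675 CPM without DSS. The calls of *Il13ra1* were lost without KO mouse 1 (0.18), KO mouse 2 (0.29), WT mouse 1 (0.28) or WT mouse 2 (0.30), and those of *Irf1* without KO mouse 3 (0.22) or 4 (0.23).

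After DSS, genes of cell death beside the inflammasome passed the unadjusted cutoff. *Ripk3*, the kinase of necroptosis, was 27.8, 41.2 and 39.7 CPM in WT and 74.0, 76.7 and 44.6 CPM in KO mice, without overlap (0.84 ± 0.24, adjusted p = 0.646, edgeR, and 0.0444 to 0.9997 over 12 alternatives). *Casp8*, the caspase that holds back necroptosis, was 102, 128 and 121 CPM in WT and 166, 165 and 122 CPM in KO mice (0.37 ± 0.14, adjusted p = 0.655, edgeR). *Cflar*, a partner of caspase-8, was 55.9, 56.6 and 52.9 CPM in WT and 67.5, 66.7 and 65.8 CPM in KO mice, without overlap (0.27 ± 0.08, adjusted p = 0.646, edgeR). For *Ripk3* and *Casp8* KO mice 1 and 2 stood above KO mouse 3, which are the mice with high mitochondrial shares, and *Casp8* lost its call without KO mouse 1 (0.29), KO mouse 2 (0.30) or WT mouse 1 (0.28). *Serpinb1a*, an inhibitor of inflammatory caspases, was 494 to 677 and 673 to 963 CPM (0.45 ± 0.17, adjusted p = 0.655, edgeR), a call lost without KO mouse 1 (0.45), KO mouse 2 (0.32) or WT mouse 1 (0.33). *Txnip* was 628 to 884 and 491 to 679 CPM (-0.38 ± 0.17, adjusted p = 0.668, edgeR), and the call was lost without KO mouse 1 (-0.28), KO mouse 2 (-0.35), WT mouse 1 (-0.24) or WT mouse 3 (-0.40). KO mice 1 and 2 also stood above KO mouse 3 for *Serpinb1a*, and below it for *Txnip* (491 and 548 against 679 CPM). The part of RNA quality in these differences was not tested.

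**Figure D4:**
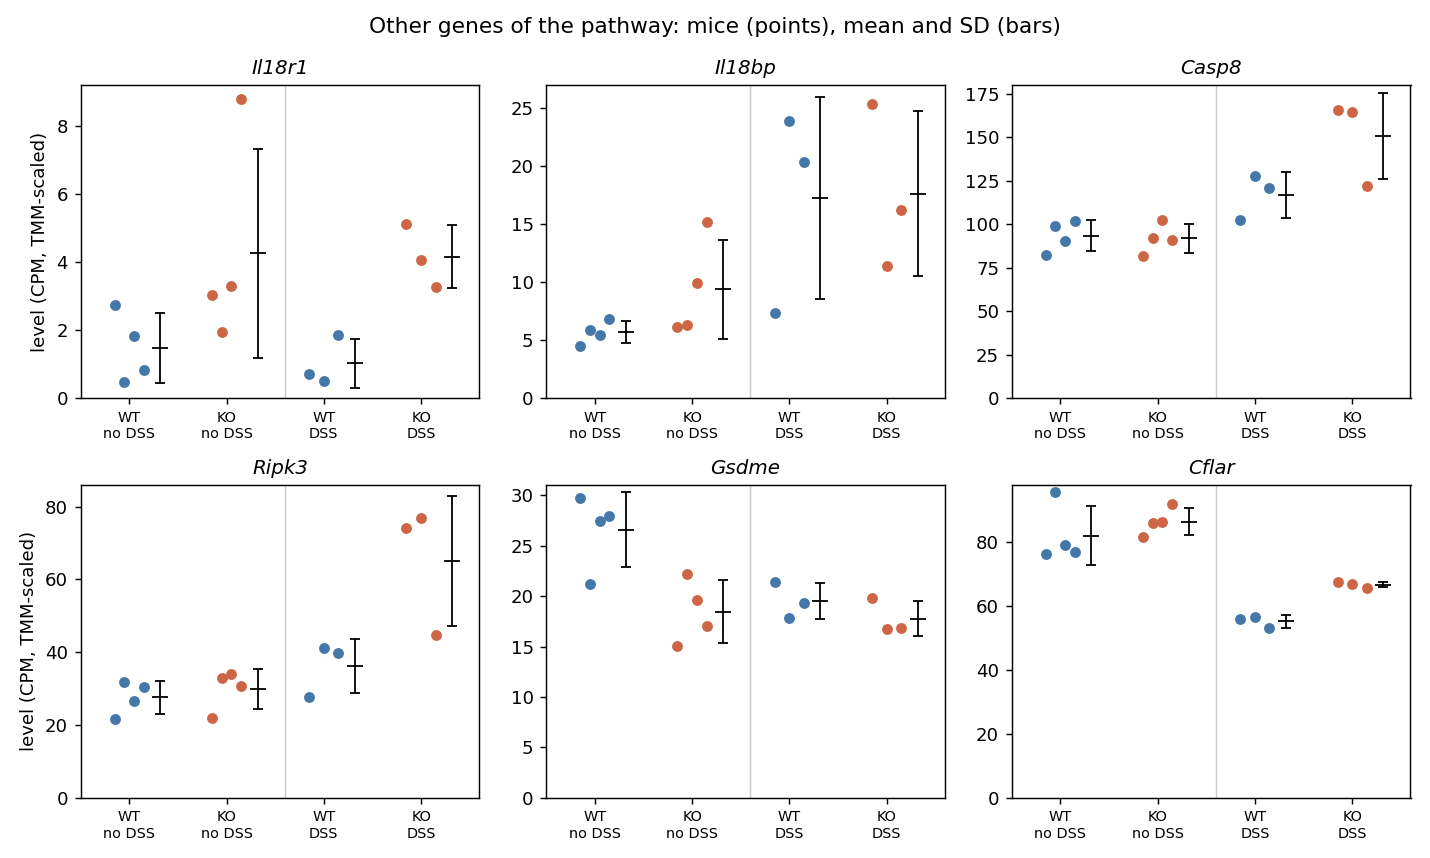
Levels (CPM from 0) of *Il18r1*, *Il18bp*, *Casp8*, *Ripk3*, *Gsdme* and *Cflar* in each mouse (points), WT in blue and KO in orange, with mean and SD of the group as bars. After DSS the KO mice lie above the WT mice without overlap for *Il18r1*, *Ripk3* and *Cflar* (3.29 to 5.14, 44.6 to 76.7 and 65.8 to 67.5 CPM), and without DSS *Gsdme* is 15.1 to 22.2 CPM in KO and 21.3 to 29.7 CPM in WT mice.

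Of the genes with the highest levels in these lists, those named next did not pass the unadjusted cutoff. *Naip2* and *Naip6*, sensors like *Naip1*, were 108 to 127 and 145 to 245 CPM without DSS and 98.0 to 104 and 69.0 to 120 CPM after DSS. *Ninj1*, which ruptures the membrane after gasdermin pores have formed, was 24.4 to 33.5 CPM without DSS and 19.8 to 30.7 CPM after DSS (log2 differences -0.05 ± 0.12 and -0.29 ± 0.14). *Il1rn*, the antagonist of the IL-1 receptor, was 24.6 to 46.2 CPM without DSS and 78.8 to 174 CPM after DSS, and *Myd88*, the adaptor below the IL-1 and IL-18 receptors, was 27.7 to 31.5 and 27.2 to 36.1 CPM. *Stat6*, which carries the signal of type 2 cytokines, was 85.8 to 101 and 87.4 to 107 CPM. *Retnlb*, a goblet cell gene induced by type 2 cytokines, spread from 381 to 4074 CPM without DSS (1.07 ± 0.51, adjusted p = 0.9995, edgeR) and from 259 to 623 CPM after DSS. *Gsdma* was at 0.317 to 1.39 CPM without DSS and 0.333 to 0.878 CPM after DSS.

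Genes whose level followed a member most closely were sought by Pearson's r of log2 CPM over the 14 mice after the mean of each group was subtracted, among the 14244 other genes tested in both tables, as a description with no test. For *Gsdmc4* they were *Gpx2* (r = 0.97), an epithelial glutathione peroxidase, and *Ralb*, *Ufm1*, *Dnajb11* and *Ormdl2* (0.93 to 0.95). For *Casp1* they were *Ctss*, *Rbis*, *Gm14698*, *Gm8242* and *Snx2* (0.90 to 0.92), and for *Il18* they were *Ppp3r1*, *Babam1*, *Snx24*, *Il10rb* and *Pigf* (0.91 to 0.94). Within the 10 genes, the same measure was 0.85 to 0.94 among the *Gsdmc* genes, 0.64 for *Gsdmd* with *Casp1*, 0.62 for *Gsdmd* with *Aim2* and 0.55 for *Gsdmd* with *Casp4*. These values pool both conditions. Whether the *Gsdmc* genes are alike by this group-centred measure in each condition, and whether the genes most like *Gsdmc4* are so, was not tested. *Il18* had no value over 0.31 with another member, and -0.43 with *Nlrp6*. The points share libraries, and among so many genes values of this size are not read as more than likeness.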

How the data were processed

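Total RNA was extracted with TRIzol and libraries were prepared with a directional kit, per the labels. For each experiment the authors deposited 1 table of unnormalized read counts per gene, with gene lengths, FPKM values (14 columns, not used here) and their own fold changes and p-values (not used). The submitters' processing notes name HISAT2 and DESeq2 without versions. The counting tool, genome build and use of strand are not given in the sources used here. Gene positions matched GENCODE vM21 (GRCm38) at start and end for 99.4% (without DSS) and 98.3% (after DSS) of shared identifiers.

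Counts were filtered with filterByExpr (minimum count 10, minimum total 15), scaled by TMM and tested with edgeR 4.0.16 (glmQLFit, glmQLFTest, robust) in R 4.3.3, each table separately, with Benjamini-Hochberg adjustment over 15441 and 14908 genes. The difference between the conditions was fitted in 1 model over 14 mice. DESeq2 1.42.0 was an alternative. Correlations used scipy 1.17.1. Replicates are separate mice per the labels. The columns after DSS are matched to groups, not to numbered samples. The test was tried on simulated counts with 200 genes changed 2-fold: 116 were recovered among 15441 genes without DSS with 2 false calls, and 132 among 14908 after DSS with 15 false calls. The largest difference among the members was smaller, 1.52-fold for *Il18* after DSS, and recovery of changes of that size was not tried.

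The members and gene lists were chosen with earlier results of these data known. Named genes are the 10 members, pathway genes at an unadjusted p under 0.05, up to 3 of each list by level, and the 5 genes most like *Gsdmc4*, *Casp1* and *Il18*. Some genes that this rule names are not reported here. Depth was 14231157 to 23153149 reads per mouse, at which 3 reads are 0.125 to 0.215 CPM on the TMM scale. Alternatives were another scaling, filter or tool, all mice in 1 model, the replicate number as a block, and each mouse left out.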

Additional observations from a re-analysis of the deposited data

Results flagged for a closer look

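Among the 23 genes named for their tests, whose 46 groups of 4 mice without DSS were screened for a mouse far from the others (chance marks about 1 in 20), 3 groups held one. *Gsdmd* in KO mouse 3 without DSS was 107 CPM, with the other KO mice at 128 to 130 CPM. *Cflar* in WT mouse 2 without DSS was 95.8 CPM, with the other WT mice at 76.3 to 78.9 CPM. *Nlrp10* in KO mouse 3 without DSS was 3.74 CPM, below the other KO mice.

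In the test of the genotype effect between the conditions, 2 of these genes were at an unadjusted p under 0.05, beside 3.96% of all genes. Both were named because they passed that cutoff after DSS, so this is no independent evidence of a difference. For *Casp8* the effect after DSS minus that without DSS was 0.40 ± 0.18 on the log2 scale (edgeR, adjusted p = 0.985), and for *Ripk3* it was 0.74 ± 0.30 (edgeR, adjusted p = 0.985). None of the 10 members differed in this way at that cutoff.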

How the results depend on the processing

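The member counts at an adjusted p under 0.05 were 0 under each alternative run. Members at an unadjusted p under 0.05 numbered 1 without DSS and 1 after DSS. Without DSS the count was 0 with all 14 mice in 1 model, and 1 to 2 with each mouse left out. After DSS it was 2 with DESeq2 and 2 with no filter on low counts, and 1 to 4 with each mouse left out. For the difference of genotype effects it was 0, and 0 to 1 with each mouse left out.

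Over all genes, counts at an unadjusted p under 0.05 were 566 without DSS, 1078 after DSS and 641 for the difference of effects, and with no filter on low counts 1099, 1819 and 1144. With each mouse left out they ran from 479 to 692, 483 to 2530 and 396 to 1468, where the highest counts after DSS and for the difference came without KO mouse 3. Counts at an adjusted p under 0.05 were 3 without DSS and 2 after DSS, 23 and 59 with DESeq2, 11 and 46 with no filter, 0 and 0 with at least 10 counts in every mouse, and 0 and 0 with protein-coding genes only. With each mouse left out they were 3 to 5, 0 to 93 and, for the difference, 0 to 1. The cause was not tested.

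Single log2 fold changes that changed sign did so with a mouse left out, except that *Gsdmc3* without DSS also did with the replicate block (0.019). Without DSS the ranges were -0.68 to 0.12 (*Gsdmc2*), -0.30 to 0.27 (*Gsdmc3*), -0.58 to 0.15 (*Gsdmc4*), -0.14 to 0.067 (*Nlrp6*), -0.10 to 0.075 (*Pycard*), -0.063 to 0.12 (*Aim2*), -0.49 to 0.11 (*Il18*), -0.074 to 0.028 (*Casp8*), -0.069 to 0.20 (*Serpinb1a*) and -0.066 to 0.27 (*Txnip*). After DSS they were -0.19 to 0.14 (*Gsdmc2*), -0.049 to 0.13 (*Casp1*), -0.068 to 0.10 (*Il13ra1*), -0.33 to 0.34 (*Il18bp*) and -0.21 to 0.15 (*Irf1*), and for the difference of effects -0.23 to 0.42 (*Casp4*).

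The replicate numbers without DSS do not pair mice (correlations of deviations -0.03, 0.15, -0.19 and -0.13 for numbers 1 to 4). With the number as a replicate block, 543 genes in place of 566 passed the unadjusted cutoff and 1 member did, while *Il13ra1* no longer did (0.29). With all 14 mice in 1 model, *Il18bp*, *Il4ra* and *Irf1* without DSS and *Serpinb1a* and *Txnip* after DSS no longer passed it. *Txnip* also did not with DESeq2's size factors, with at least 10 counts in every mouse or with protein-coding genes only, and *Il18r1* without DSS did not with no filter. No paired analysis was possible after DSS or for the difference of effects because the numbers of the columns after DSS match no sample title, so that they name no mouse that a number could pair. At these depths a level under 0.125 to 0.215 CPM rests on 3 reads or fewer, which touches *Nlrp3*, *Il13* and *Gsdmc*.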
